A study of Mus musculus with 12 samples.

Results

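B2m, H2-D1, Psmb9 and Tap2 are 4 mouse genes of class I antigen presentation, and their levels were read in an osteoblast line and an osteocyte line. They were taken as every spot whose current mouse symbol, updated by Entrez identifier, is one of these names. Each gene had 1 spot, so the set is 4 of 4605 named genes and 4 of 5030 spots. Total RNA was hybridised to 12 one-colour spotted arrays, 3 in each of 4 groups. The osteoblast line 2T3 comes from a mouse whose SV-40 T antigen transgene is driven by the BMP-2 promoter, and its groups are labelled C0 and low. The labels set confluency against low density for these osteoblasts, and C0 is taken here for the confluent cells solely since its counterpart carries the label low. The osteocyte line MLO-Y4 comes from a mouse whose T antigen is driven by the osteocalcin promoter, and its groups are labelled high and low. The labels set osteocytes with gap junctions against those without, and high is taken for the state with them on the same ground. Every group thus carries T antigen. Each cell type is a single line, so cell type cannot be told apart from the line and the mouse it came from. Whether arrays of a group came from separate cultures is not said, and the p-values may reflect technical spread alone.

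Class I molecules carry peptides from inside a cell to its surface, where cytotoxic T cells inspect them. Psmb9 is a catalytic subunit of the immunoproteasome, the inducible form of the proteasome that cuts proteins into such peptides. Tap2 pairs with Tap1 to form the transporter that moves the peptides into the endoplasmic reticulum. There they are loaded onto a heavy chain, such as the one encoded by H2-D1, bound to the light chain beta-2-microglobulin, encoded by B2m. Nearly all nucleated cells make class I molecules, and interferons raise the genes of this pathway together. Osteoblasts and osteocytes are not professional antigen-presenting cells, and class II molecules are normally a feature of those.

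B2m lies on chromosome 2, and the other members lie on chromosome 17, in the major histocompatibility complex. Promoters of 3 of the 4 members, B2m, H2-D1 and Psmb9, were matched by symbol and are shown because shared control letters are a known feature of class I genes. Each is given 5′ to 3′ on the gene's strand and ends just before the transcription start, from RefSeq on GRCm38.p6. Capitals mark matches, on either strand, to letters of known elements. These are ATTGG for the Y box bound by NF-Y, and TGACG for the core of a cyclic AMP response element. A search for TTCNNNGAA, the gamma-activated site, found no match in these windows.
B2m, chr2:122147437-122147686, plus strand: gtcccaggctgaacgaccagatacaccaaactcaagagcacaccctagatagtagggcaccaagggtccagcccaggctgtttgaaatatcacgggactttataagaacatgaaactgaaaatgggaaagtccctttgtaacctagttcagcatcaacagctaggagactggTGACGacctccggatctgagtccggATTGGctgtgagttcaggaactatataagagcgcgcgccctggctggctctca
H2-D1, chr17:35262844-35263093, plus strand: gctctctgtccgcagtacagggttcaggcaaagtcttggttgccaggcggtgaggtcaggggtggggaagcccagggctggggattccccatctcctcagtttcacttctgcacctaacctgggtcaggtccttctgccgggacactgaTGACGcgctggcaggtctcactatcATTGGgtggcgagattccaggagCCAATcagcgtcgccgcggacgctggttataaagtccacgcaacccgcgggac
Psmb9, chr17:34187331-34187555, minus strand: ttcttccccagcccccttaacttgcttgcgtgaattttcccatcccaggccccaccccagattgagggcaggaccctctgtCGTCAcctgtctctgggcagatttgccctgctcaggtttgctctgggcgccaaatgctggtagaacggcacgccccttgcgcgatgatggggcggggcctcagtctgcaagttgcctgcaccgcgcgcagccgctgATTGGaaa
ATTGG and TGACG are each in all 3 windows, and in 34.5% and 17.9% of 27025 RefSeq mouse promoters of 250 bases. TTCNNNGAA is in 7.18% of them. No matches overlap. In B2m and H2-D1, TGACG is followed by ATTGG on the gene's strand, with their first bases 25 apart. That spacing, noticed after the sequences were seen, is in 15 of 27025 promoters (0.0555%). Of 21 class I heavy chain, relative and B2m promoters, 4 held it, those of B2m, H2-D1, H2-K1 and H2-M3. The spacing was taken from B2m and H2-D1, so their place in this count was fixed in advance. The Psmb9 sequence is the whole stretch of 225 bases between its start and that of Tap1, which is read the other way. A match is a description of letters, and binding was not measured here.

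The deposited values were background-subtracted spot intensities, brought to one distribution by quantile normalization and given below as scaled intensity. A spot counts as measured on an array where its deposited value exceeded the detection limit, taken as the size of the lowest value on that array. Between 37.9% and 74.8% of spots passed it on a single array, with the lowest shares, 37.9% and 38.1%, on the MLO-Y4 arrays numbered 1. Of the osteocyte markers, 5 of 6 (Ackr3, Capg, Cd44, Dstn and Pdpn) were called higher in MLO-Y4 than in 2T3, as were 5.79% of all spots (limma adjusted p under 0.05). The sixth, Phex, was above the limit on no array. The marker lists were chosen with earlier results of these data known, so this count is no independent check of the line. None of 8 osteoblast markers was called over both densities, and their median log2 difference was -0.64. In dense culture 1 (Omd) was at least 1.76-fold lower in MLO-Y4 against 2T3 C0 (limma adjusted p = 0.0429), where 1.03% of all spots were called lower. Bglap (osteocalcin) was above the limit on 6 of 6 2T3 and 4 of 6 MLO-Y4 arrays. Alpl, uncalled, went the other way. It stood at 343 and 315 scaled units in MLO-Y4 low and high, against 64.0 and 74.4 in 2T3 low and C0.

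B2m ranked between percentile 91.95 and 99.44 of all spots on each array. Its scaled intensity on arrays 1, 2 and 3 was 574, 962 and 1101 in 2T3 low, and 1107, 786 and 1373 in 2T3 C0. It was 1633, 1200 and 3687 in MLO-Y4 low, and 6321, 2898 and 7784 in MLO-Y4 high. The MLO-Y4 high arrays held the highest values, and 1 of them lay within the range of MLO-Y4 low. The order of the groups by geometric mean was therefore 2T3 low (847), 2T3 C0 (1061), MLO-Y4 low (1934) and MLO-Y4 high (5224), on the scaled intensity scale. The SDs of log2 were 0.50, 0.41, 0.84 and 0.75 (n = 3 each), and neighbouring groups overlapped at every step of that order. Over both densities, B2m was 3.35-fold higher in MLO-Y4 than in 2T3, a log2 difference of 1.75 (SE 0.38, n = 6 per line, limma adjusted p = 0.0173). It was the only member called at an adjusted p under 0.05, where 9.24% of all spots were called, 5.79% higher and 3.46% lower in MLO-Y4. Without both MLO-Y4 arrays numbered 1 the difference was 1.69 with a limma adjusted p of 0.0609, and the call was lost. In bulk RNA, more cells expressing a gene and more RNA per cell cannot be told apart.

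H2-D1, the heavy chain, was measured on all 12 arrays like B2m. In 2T3 low its scaled intensity was 34.8, 328 and 257 on arrays 1, 2 and 3, so that array 1 lay far under the others. In 2T3 C0 it was 157, 221 and 290. In MLO-Y4 low it was 276, 340 and 432, and in MLO-Y4 high 984, 679 and 984. The groups stood in the same order as for B2m, at geometric means of 143, 216, 343 and 869 scaled units, and each overlapped the next except MLO-Y4 low and high. The SD of log2 was 1.78 in 2T3 low and between 0.31 and 0.44 in the other groups (n = 3 each). The line difference was 1.64 on the log2 scale (SE 0.52, n = 6 per line), with a limma adjusted p of 0.0863 and a 95% interval from 0.48 to 2.79. Without 2T3 low array 1 it was smaller, 1.13, and passed the test (limma adjusted p = 0.0279). It also passed without 2T3 low array 2 (1.94, limma adjusted p = 0.0485). H2-D1 resembles other class I heavy chains closely in sequence, and what the spot reads is not given in the sources used here. The strains and H-2 haplotypes of the lines are not given either, so a difference in probe match cannot be told apart from a difference in level.

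Tap2, the transporter subunit, was dimmer and more scattered. In 2T3 low its scaled intensity was 21.8, 20.3 and 7.54, the last not above the detection limit. In 2T3 C0 it was 94.4, 34.8 and 6.17, the last again not above the limit. In MLO-Y4 low it was 108, 37.1 and 20.8, and in MLO-Y4 high 128, 76.5 and 86.6. The arrays numbered 1 of 2T3 C0 and MLO-Y4 low lay well above the others of their group. The SDs of log2 there were 1.99 and 1.21, against 0.39 in MLO-Y4 high (n = 3 each). Geometric means rank the groups as 2T3 low (14.9), 2T3 C0 (27.3), MLO-Y4 low (43.7) and MLO-Y4 high (94.7 scaled units), and each neighbouring pair overlapped. The line difference was 1.67 on the log2 scale (SE 0.67, n = 6 per line), with a limma adjusted p of 0.179 and a 95% interval from 0.18 to 3.16. With array number as a fixed block over all groups its SE was 0.43 and it passed the test (limma adjusted p = 0.0417). Same-numbered arrays varied together between MLO-Y4 low and high and between MLO-Y4 high and 2T3 C0. The correlations of 2T3 low with 2T3 C0 and MLO-Y4 low lay between -0.108 and 0.149. The block over all groups therefore also joins numbers that were not taken as pairs.

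Psmb9, the immunoproteasome subunit, was above the limit on 4 of 12 arrays. These were 2T3 low array 1 (19.0 scaled units), MLO-Y4 low array 3 (13.7) and MLO-Y4 high arrays 2 and 3 (21.8 and 24.9). No 2T3 C0 array measured it, and all 3 lay at the floor of 5.154 scaled units that was set under low values. The other arrays read 5.15 and 7.54 in 2T3 low, 5.86 and 5.15 in MLO-Y4 low, and 13.7 on MLO-Y4 high array 1, none of them above its array's limit. That limit was 50.2 scaled units on MLO-Y4 high array 1 and 49.6 on MLO-Y4 low array 1, so that a level like those of the measured arrays could not have been seen there. The line difference was 0.82 on the log2 scale (SE 0.39, n = 6 per line, limma adjusted p = 0.262), with a 95% interval from -0.04 to 1.68.

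**Figure D1:**
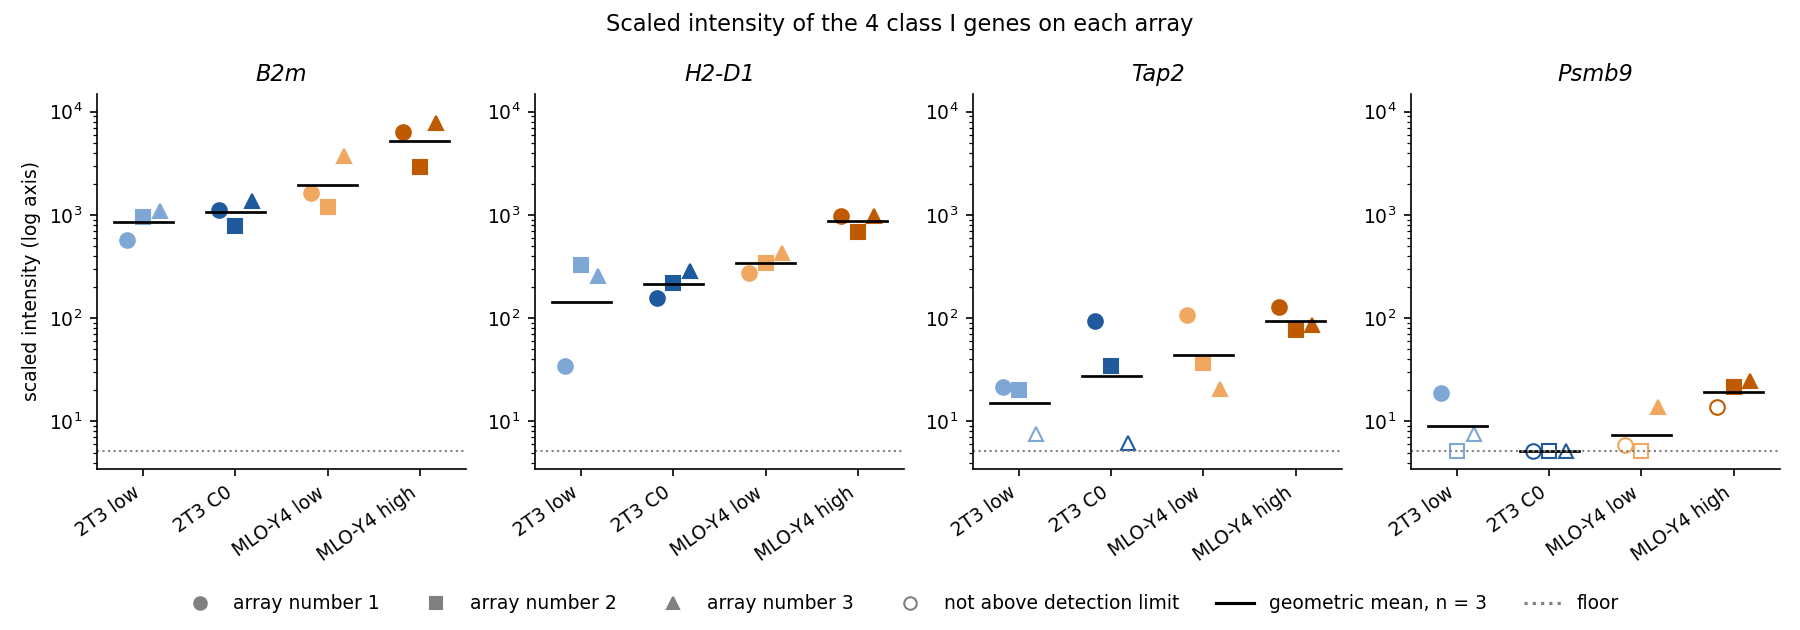
Scaled intensity (log axis) of B2m, H2-D1, Tap2 and Psmb9 on each of the 12 arrays by group, with marker shape for array number, open markers for values not above the detection limit, bars for geometric means of 3 arrays and a dotted line at the floor. B2m and H2-D1 are filled on every array, H2-D1 in 2T3 low has 1 array at 34.8 against 328 and 257, and Psmb9 is filled on 4 arrays.

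The same contrast was made within matched states, since the line comparison averages over both densities. At low density, the MLO-Y4 minus 2T3 difference was 1.19 (SE 0.54) for B2m, 1.26 (SE 0.73) for H2-D1, 1.55 (SE 0.95) for Tap2 and -0.28 (SE 0.54) for Psmb9 on the log2 scale. Without 2T3 low array 1 the H2-D1 difference was 0.24. None was called (limma adjusted p from 0.331 to 0.883, n = 3 per group), against 3.88% of all spots, 2.88% higher and 0.994% lower. The 3 MLO-Y4 low arrays of B2m still lay above all 3 of 2T3 low, which held for 10.4% of spots. The interval for B2m, from -0.01 to 2.39, includes 0 and a difference larger than the one over both densities.

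In dense culture, MLO-Y4 high against 2T3 C0, B2m was 4.92-fold higher, at 5224 against 1061 scaled units. The log2 difference was 2.30 (SE 0.54, n = 3 per group, limma adjusted p = 0.0479), while 3.38% of all spots were called, 2.35% higher and 1.03% lower. That call held in 3 of 12 fits that left out 1 array, with limma adjusted p from 0.0349 to 0.153. The arrays of B2m, H2-D1 and Psmb9 did not overlap between these groups, as for 8.65% of spots, and those of Tap2 did. H2-D1 differed by 2.01 (SE 0.73, limma adjusted p = 0.216) and Tap2 by 1.80 (SE 0.95, limma adjusted p = 0.467) on the log2 scale. The Tap2 value was 0.74 without 2T3 C0 array 3 and 2.73 without 2T3 C0 array 1. Psmb9 stood at 19.5 scaled units in MLO-Y4 high, measured on 2 of 3 arrays, and at the floor in 2T3 C0. Set over the limits of the 2T3 C0 arrays, Psmb9 was 2.22-fold higher (limma adjusted p = 0.102 for the floored values). For such ratios a group below the limit was given, per array, the larger of its own value and that array's limit. The brighter group's mean was set over the mean of these. Brighter-group arrays not above their limit kept their own values, here MLO-Y4 high array 1, so 2.22-fold is not a strict bound. Without 2T3 low array 1, which enters this contrast only through the normalization and the shared estimate of spread, H2-D1 (2.02, limma adjusted p = 0.0143) and Psmb9 (2.05, limma adjusted p = 0.0440) passed as well, and the count of members called was 3.

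Same-numbered arrays of MLO-Y4 high and 2T3 C0 also deviated together, with correlations across spots of 0.519, 0.306 and 0.362, and were compared by number. Arrays of unlike number in these groups correlated from -0.472 to 0.271, so the ground for this pairing is weak for number 2. High over C0 on the log2 scale was 2.51, 1.88 and 2.50 for B2m, and 2.64, 1.62 and 1.76 for H2-D1. It was 0.44, 1.14 and 3.81 for Tap2, so that the pairs were all above 0 although the groups overlapped. The Tap2 pair numbered 3 used a 2T3 C0 value not above the limit. Pair number 1 of Tap2 was 0.11 when arrays were scaled on spots measured on all arrays. For Psmb9 the differences were 1.41, 2.08 and 2.27, against a floor in 2T3 C0. In its pair number 1 the deposited value was 5 on both arrays, neither above its limit. That pair differed by 0.19 when arrays were scaled on spots measured on all arrays. All 4 members were higher in each pair, as were 14.9% of spots. Fitted on these 6 arrays with number as a replicate block, the SE was 0.24 for B2m, 0.31 for H2-D1, 0.28 for Psmb9 and 0.85 for Tap2. No member was called (limma adjusted p of 0.109, 0.144, 0.134 and 0.435 in that order) and no spot was (0%), while 847 (16.8%) had an unadjusted p under 0.05. With the block over all 4 groups, which also joins 2T3 low numbers not taken as pairs, B2m kept its call (limma adjusted p = 0.0207).

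Density within MLO-Y4 was compared first over groups and then by array number. High minus low was 1.43 (SE 0.54) for B2m, 1.34 (SE 0.73) for H2-D1, 1.39 (SE 0.54) for Psmb9 and 1.12 (SE 0.95) for Tap2 on the log2 scale (n = 3 per group). No member was called by limma, and neither was any of the 5030 spots (0%). At an unadjusted p under 0.05, 116 spots (2.31%) were found, B2m (0.0235) and Psmb9 (0.0286) among them by limma's test. H2-D1 was the member whose groups did not overlap, as for 2.41% of spots.

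Same-numbered MLO-Y4 arrays deviated from their group means together, with correlations across spots of 0.618, 0.467 and 0.495 for numbers 1, 2 and 3, so high and low were also compared by number. For B2m, the log2 difference of high over low was 1.95, 1.27 and 1.08. For H2-D1 it was 1.83, 1.00 and 1.19. These 2 genes were measured on both arrays of every pair, and number 1 gave the largest difference in each. For Tap2 it was 0.25, 1.05 and 2.06, with number 1 the smallest, and the deposited intensities of that pair were 71 in high and 72 in low. For Psmb9 it was 1.22, 2.08 and 0.86, but only the pair numbered 3 was measured on both arrays. All 4 members were higher in high in each of the 3 pairs, as were 483 of 5030 spots (9.60%). The direction was the same when arrays were scaled to equal medians or on spots measured on all arrays. Under the last scaling, however, pair number 1 differed by 0.19 for Psmb9, measured on neither array, and by 0.068 for Tap2. Under quantile normalization, a difference over 2-fold in all 3 pairs was found for 1 member, B2m, and for 27 spots (0.537%). This depended on the scaling. Pair number 2 of B2m was 0.91 under equal medians. On spots measured on all arrays, H2-D1 was over 2-fold in each pair as well (1.95, 1.11 and 1.26). Fitted on the 6 MLO-Y4 arrays with number as a block, the SE was 0.27 for B2m, 0.26 for H2-D1, 0.33 for Psmb9 and 0.45 for Tap2. Unadjusted limma p-values were 0.0114, 0.0128, 0.0226 and 0.0847 in that order, and 247 spots (4.91%) were under 0.05. The adjusted p was 0.804 for each, and no spot was called.

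**Figure D2:**
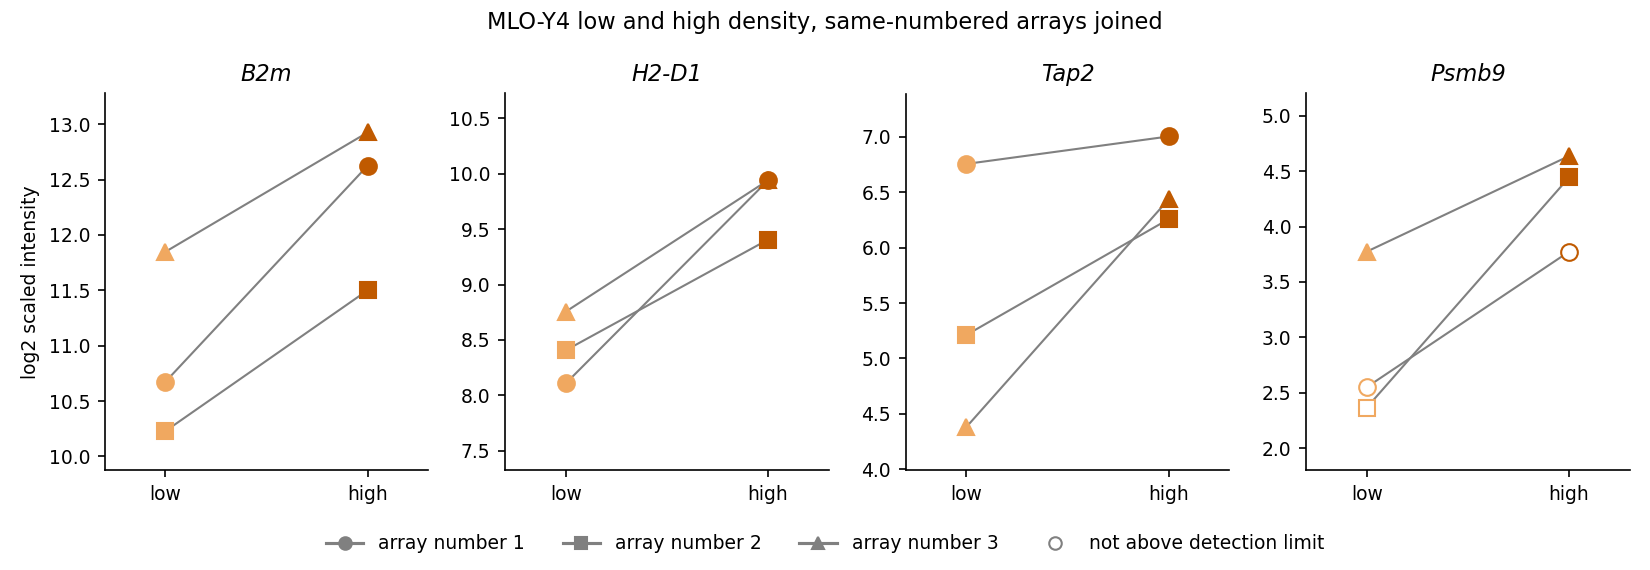
Log2 scaled intensity of the 4 genes in MLO-Y4 low and high, with lines joining arrays of the same number, marker shape for number, open markers for values not above the detection limit and a separate vertical range for each gene. All lines end higher in high than in low, by from 0.25 (Tap2, number 1) to 2.08 (Psmb9, number 2), and Psmb9 has filled markers at both ends for number 3 alone.

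Within 2T3, C0 minus low was 0.32 (SE 0.54) for B2m, 0.59 (SE 0.73) for H2-D1, 0.87 (SE 0.95) for Tap2 and -0.81 (SE 0.54) for Psmb9 on the log2 scale (n = 3 per group), the last with every C0 array at the floor. No member and no spot was called by limma, while 263 spots (5.23%) had an unadjusted p under 0.05, with none of the members among them. No member's arrays were all higher in C0, as 4.87% of spots were. The density differences in the 2 lines were set against each other by an interaction term. It was 1.11 (SE 0.76) for B2m, 0.75 (SE 1.04) for H2-D1, 0.25 (SE 1.34) for Tap2 and 2.20 (SE 0.77) for Psmb9 on the log2 scale. By limma, 0 of 5030 spots were called and 146 (2.90%) had an unadjusted p under 0.05, Psmb9 (0.0169) among the members. The Psmb9 value rests on 1 measured array in each low group and none in 2T3 C0. With the floor at the 40th percentile it was 0.65, and the MLO-Y4 density difference of Psmb9 was 0.50.

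The remaining class I heavy chains and relatives were read beside the members, from a list that also held B2m and H2-D1. Of 14 other genes with a spot, 3 were called higher in MLO-Y4 over both densities and none lower. Of all spots, 5.79% were called higher and 3.46% lower. The median log2 difference of the 14 was 0.41, against -0.03 over all spots. It lies between the values of H2-M3 (0.34) and H2-M9 (0.48), both above the limit on no array, so it describes floored values. Raet1d, a ligand of the natural killer receptor NKG2D, stood at 427 against 14.3 scaled units, a log2 difference of 4.91 (SE 0.69, limma adjusted p = 0.00166). H2-T23, the Qa-1 heavy chain that presents signal peptides, stood at 219 against 31.1, a difference of 2.82 (SE 0.40, limma adjusted p = 0.00184). Mr1, which presents vitamin metabolites to a class of innate-like T cells, was measured on 4 MLO-Y4 arrays out of 6 and no 2T3 array. With 2T3 raised to its limits it was 2.18-fold higher (limma adjusted p = 0.0114). That is not a strict bound, since unmeasured MLO-Y4 arrays kept their own values. H2-Q1 differed by 1.68 (limma adjusted p = 0.0861) and neither it nor the iron regulator Hfe was called. Hfe was measured on 2 MLO-Y4 arrays and no 2T3 array. It was 1.26-fold higher in MLO-Y4 with 2T3 raised to its limits, again not a strict bound (limma adjusted p = 0.0879). Among the uncalled others, Cd1d2 differed by 0.20, Cd1d1 by -0.09 and Fcgrt by -0.68. H2-T24 and Azgp1 were above the limit on no MLO-Y4 array. H2-Bl, H2-M9, H2-M3 and H2-T3 were above the limit on no array. In dense culture 3 of the 14 were called higher (H2-T23, Raet1d and Mr1), and at low density 1 (Raet1d). Of all spots, 2.35% were called higher in dense culture and 2.88% at low density.

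Among genes of peptide loading and trimming, 2 of 7 beside Tap2 were called higher in MLO-Y4 and none lower, with a median log2 difference of 0.09. Of all spots, 5.79% were called higher and 3.46% lower. Tapbp, the tapasin that holds empty class I molecules at the transporter, lay between 30.0 and 99.7 scaled units on the 6 2T3 arrays and between 384 and 1126 on the 6 MLO-Y4 arrays. The lines did not overlap, as for 4.10% of spots, and the log2 difference was 3.18 (SE 0.40, limma adjusted p = 7.68e-04). Tap1, the partner of Tap2, was measured on 3 of 6 2T3 and 5 of 6 MLO-Y4 arrays and stood at 10.7 against 36.8 scaled units. That is a difference of 1.79 (SE 0.40, limma adjusted p = 0.0194), close to the 1.67 of Tap2 with a smaller error. When arrays were scaled on the spots measured on all of them, Tap1 differed by 1.07 and was not called (limma adjusted p = 0.148). The general chaperones of the endoplasmic reticulum differed by 0.26 (Canx), 0.09 (Calr) and -0.10 (Pdia3), and the peptidases by 0.07 (Npepps) and -0.62 (Tpp2), with limma adjusted p from 0.670 to 0.982.

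Of the immunoproteasome and its activator, 2 of 4 genes beside Psmb9 were called higher in MLO-Y4. Among all spots, 5.79% were called higher and 3.46% lower. Psme1, a subunit of the interferon-inducible proteasome activator, stood at 883 against 279 scaled units, a log2 difference of 1.66 (SE 0.32, limma adjusted p = 0.00903). Its 6 MLO-Y4 arrays, from 460 to 1963, lay above all 6 2T3 arrays, from 220 to 361. Psmb8, the catalytic subunit made beside Psmb9, was measured on 1 2T3 and 4 MLO-Y4 arrays and differed by 2.05 (SE 0.56, limma adjusted p = 0.0458). That call was lost in 10 of 12 fits that left out 1 array. Psmb10, the third inducible subunit, differed by 1.49 (limma adjusted p = 0.151) and Psme3, of the nuclear activator, by 0.77 (limma adjusted p = 0.272). None of 20 subunits of the constitutive proteasome was called, and their median difference was -0.08. None of 9 class II genes was called either. They differed by 1.61 (H2-DMa, limma adjusted p = 0.151), 0.35 (H2-Ob), 0.26 (H2-DMb2), 0.12 (H2-DMb1), -0.32 (H2-Ab1), -0.38 (Ciita) and -1.05 (H2-Eb1). Cd86 and H2-Oa were above the limit on no MLO-Y4 array, and the median over all 9 was 0.12.

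**Figure D3:**
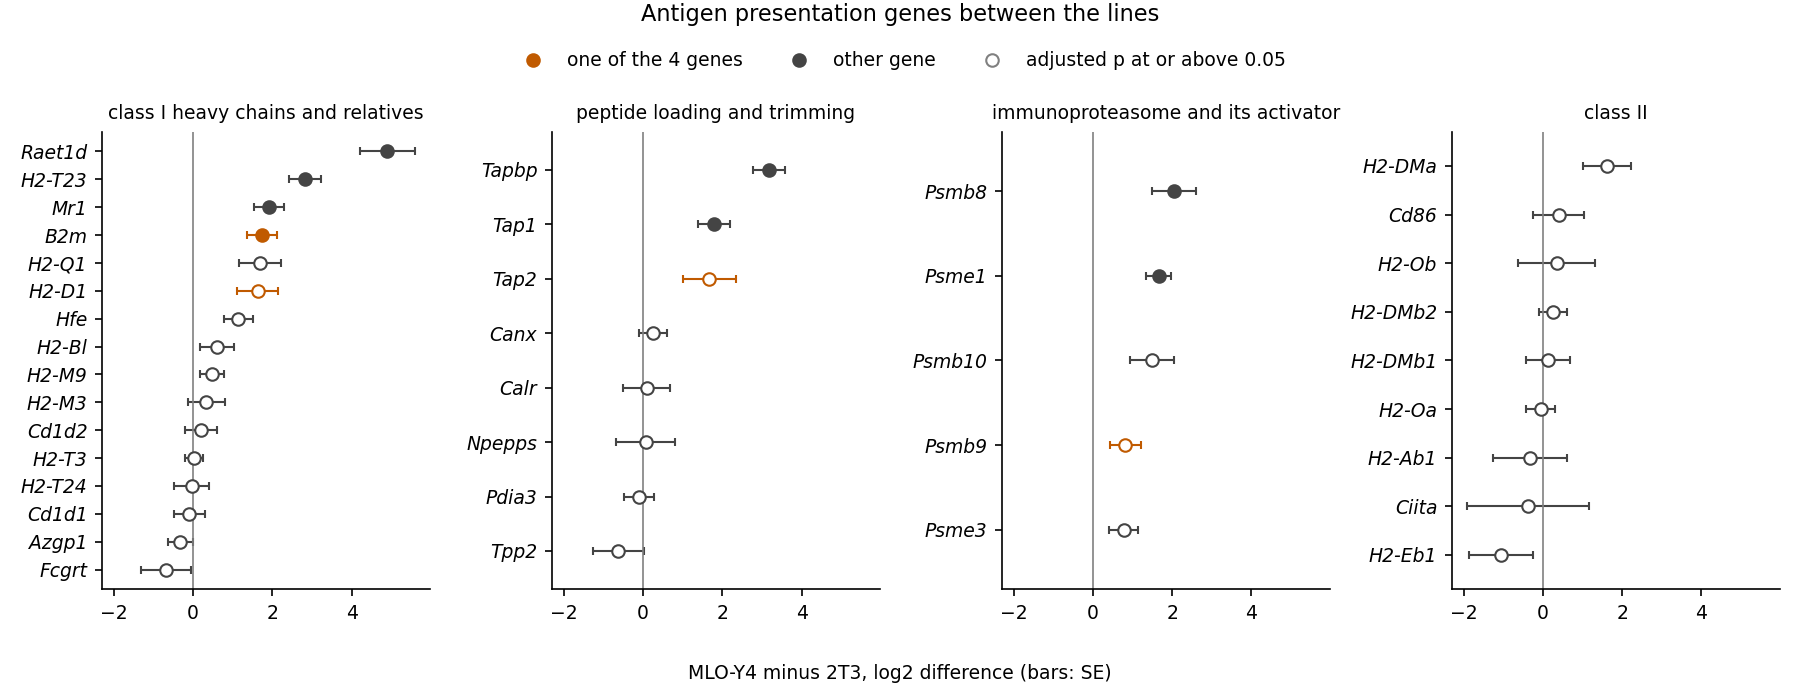
Log2 difference of MLO-Y4 over 2T3 with its SE for each measured gene of 4 lists, in orange for the 4 genes and grey for others, filled where limma's adjusted p was under 0.05. Filled points are Raet1d, H2-T23, Mr1, B2m, Tapbp, Tap1, Psmb8 and Psme1, all to the right of 0, and the class II panel has none.

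Regulators known to act on class I genes were read from a list of 22 measured genes. Of these, 3 were called higher in MLO-Y4 over both densities, as were 5.79% of all spots, and none lower. The median log2 difference was 0.05. In dense culture, 1 was called higher and 1 lower, where 2.35% and 1.03% of all spots were. Rfxank, a subunit of the RFX complex that binds class I and class II promoters, was measured on 4 MLO-Y4 arrays out of 6 and no 2T3 array. With 2T3 raised to its limits it was 2.10-fold higher (limma adjusted p = 0.00583). That is not a strict bound, since unmeasured MLO-Y4 arrays kept their own values. The inhibitor of NF-kappaB Nfkbia differed by 2.28 (limma adjusted p = 0.0291) and the interferon signal transducer Stat2 by 1.95 (limma adjusted p = 0.0301). Irf1, an interferon-induced activator of class I genes, was at 85.8 against 249 scaled units, a difference of -1.54 that was not called (limma adjusted p = 0.0876). Of 14 interferon-stimulated genes outside the class I lists, 8 were higher in MLO-Y4 and none lower, with a median of 2.88. The 4 with the smallest p, Gbp2, Usp18, Ifit3 and Irf7, were above the limit on no 2T3 array and at least 36.3-fold, 19.1-fold, 17.6-fold and 16.3-fold higher in MLO-Y4 (limma adjusted p from 3.44e-07 to 1.43e-04). The part of these genes in the class I differences was not tested.

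Markers of blood-derived cells, which carry much class I, were read for the same contrast. In it, 5.79% of all spots were called higher and 3.46% lower in MLO-Y4. Ptprc, the pan-leukocyte CD45, was above the limit on 0 of 12 arrays. Of 13 macrophage, monocyte and osteoclast markers, 1 was higher in MLO-Y4 (Csf1r, 13.0 against 5.98 scaled units, limma adjusted p = 0.0291) and 1 lower (Tyrobp, 9.81 against 116, limma adjusted p = 0.00699). Their summed level on an array lay from 292 to 667 in 2T3 C0, 559 to 663 in 2T3 low, 278 to 562 in MLO-Y4 low and 261 to 893 in MLO-Y4 high. None of 3 dendritic cell markers was called. Their sums lay from 15.1 to 64.6 in 2T3 low, and up to 46.8 with a median of 24.4 in 2T3 C0. They lay from 14.9 to 30.4 in MLO-Y4 low and 33.2 to 112 in MLO-Y4 high, without overlap. These sums rest largely on values not above the limit. In MLO-Y4 high and low, Ccr7 was above it on 2 and 2 arrays, Flt3 on 1 and 0, and Xcr1 on 0 and 0. The part of these markers in the density differences was not tested. Of 11 lymphocyte markers, 1 was higher, Ms4a1 (588 against 26.1 scaled units, limma adjusted p = 1.65e-04), while Cd3e, Cd3g, Cd8b1 and Prf1 were above the limit on no MLO-Y4 array. On the 6 MLO-Y4 arrays the others were above it on 5 (Cd3d), 4 (Cd79a), 4 (Ptprcap), 3 (Gzmb), 2 (Gzma) and 1 (Cd79b). The lymphocyte sums overlapped between groups, from 431 to 1341 in 2T3 C0, 1094 to 1369 in 2T3 low, 488 to 1558 in MLO-Y4 low and 827 to 1684 in MLO-Y4 high. None of 8 endothelial markers was called.

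The scaling between arrays moved the line difference. Equal-median scaling moved the 1253 spots measured on all 12 arrays by 0.79 on the log2 scale toward MLO-Y4, against 0.04 under quantile normalization and -0.07 when those spots themselves were used. The higher share of called spots was 81.5%, 62.6% and 43.8% in that order. B2m differed by 2.69, 1.75 and 1.83 and was called under each. In dense culture its difference was 3.29 under equal medians, 9.75-fold, against 2.30 and 2.52 under the others. H2-D1 was called under equal medians alone of these (2.29, limma adjusted p = 0.0145). In the line contrast, dense culture and MLO-Y4 density each member's difference was above 0 under all 3 scalings.

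**Figure D4:**
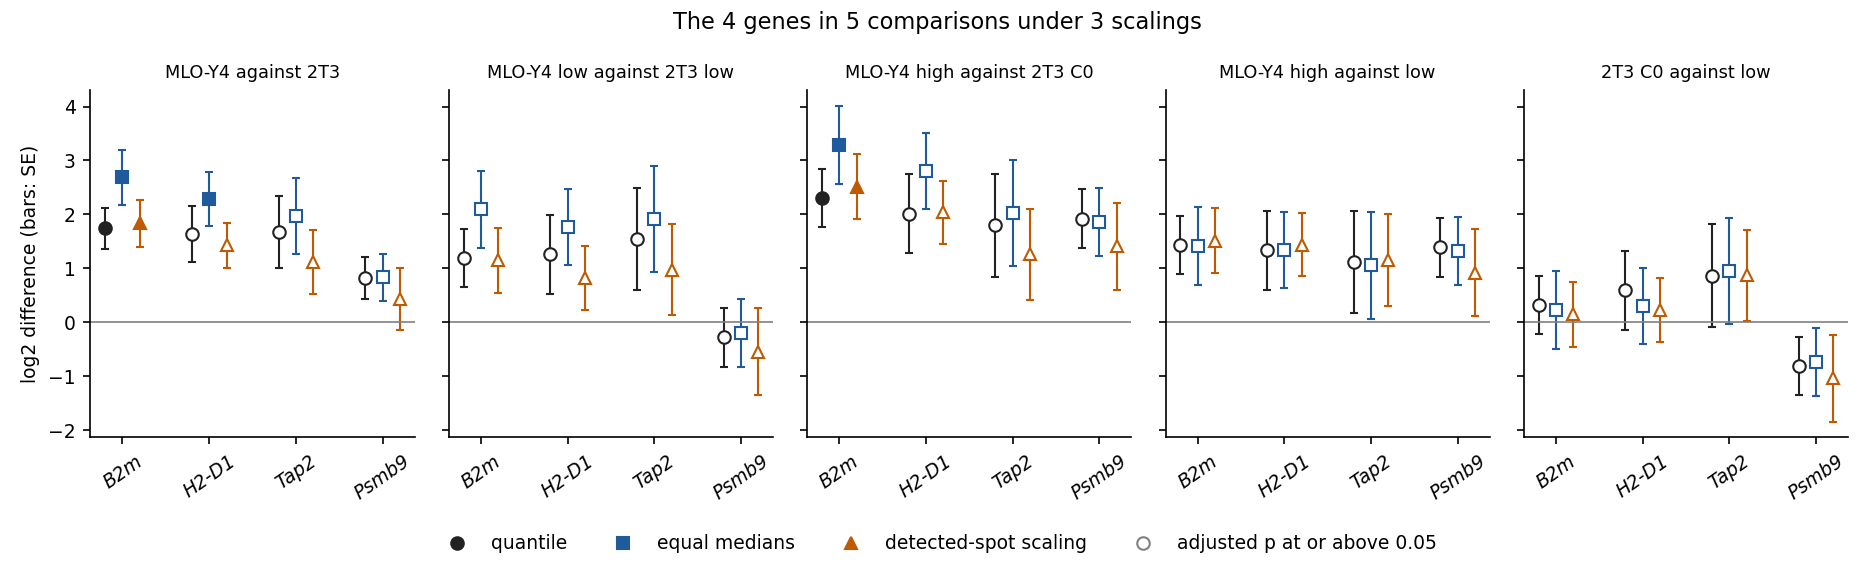
Log2 differences with SE of the 4 genes in 5 comparisons under quantile normalization (circles), equal-median scaling (squares) and scaling on spots measured on all arrays (triangles), filled where limma's adjusted p was under 0.05. B2m is filled in the line comparison and in dense culture under each scaling, H2-D1 is filled once, and nothing is filled within a line.

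The profile of each member over the 12 arrays was set against that of 2902 spots (2903 for Psmb9) by the root mean square gap of log2 values, each centred on its own mean. The arrays of a group share their line and state, so the gaps are a description. Nearest to B2m were Psme1 (0.52), Lgals9 (0.54) and Cct4 (0.59), where the median spot had a gap of 1.59. Nearest to H2-D1 were Cct4 (0.61), Fth1 (0.62) and Cfdp1 (0.63), with a median of 1.63. B2m and H2-D1 had a gap of 0.66 to each other, rank 9 from B2m and rank 6 from H2-D1. Nearest to Psmb9 were Kat2b (0.53), Atxn1 (0.56) and Hivep3 (0.57), with a median of 1.46, although 8 of its 12 values were not above the limit. Nearest to Tap2 were Lgmn (0.65), Zbtb7a (0.69) and Igfbp7 (0.70), with a median of 1.75. The gap between Tap2 and the other members was 1.33 (B2m), 1.44 (Psmb9) and 1.51 (H2-D1), ranks 529, 771 and 932 from Tap2.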

How the data were processed

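Total RNA was measured on 12 arrays. The authors deposited an intensity per spot on a linear scale, in whole numbers between -23 and 53055, with a background already subtracted, since some lie below 0. Image software, background method and normalization: not given in the sources used here. Median intensity per array ran from 4 to 55 and the total from 212491 to 1680311. Precision is limited by how many arrays there are. Of 5030 spots, the platform annotation listed 4638, 4633 with 1 symbol and 5 with several. Symbols were updated by Entrez identifier for 4624 and kept for 9.

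Arrays were scaled to equal medians and quantile normalized, values under the 25th percentile (5.154 scaled units) were set to it, and log2 was taken. Values at the floor have no order. lmFit and eBayes of limma 3.58.1 in R 4.3.3 estimated 4 group means over 12 arrays, with 8 residual degrees of freedom. The 6 comparisons were two-sided, with Benjamini-Hochberg adjustment over 5030 spots and a threshold of 0.05. Tables and plots used Python 3.11.15.

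The members, gene lists and detection limit were chosen with earlier results of these data known. All measured genes of the class I, loading, immunoproteasome and class II lists are named, of other lists up to 4 called genes with the smallest p, and for likeness the 3 nearest spots above the limit on at least 6 arrays. Markers named with values beyond these, and Irf1, were picked after their values were seen.

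Labels give the groups the same array numbers. Deviations of same-numbered arrays correlated at 0.618, 0.467 and 0.495 between MLO-Y4 low and high and at 0.519, 0.306 and 0.362 between 2T3 C0 and MLO-Y4 high, so the numbers were taken to pair these. They correlated at 0.04, 0.06 and 0.15 between 2T3 low and C0 and at 0.0032, -0.11 and 0.13 between the low groups, and were not taken to pair those. Arrays of unlike number correlated from -0.465 to 0.123 between the MLO-Y4 groups. Between 2T3 C0 and MLO-Y4 high they correlated from -0.472 to 0.271, so the margin there was small for number 2. Alternatives changed the scaling, the floor, the filter on dim spots, the variance model, the arrays fitted and the replicate block.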

Additional observations from a re-analysis of the deposited data

How the results depend on the processing

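Over 532 values of the members under alternatives, 505 kept their direction and side of the threshold, 14 lost a call, 7 gained one and 6 turned direction. In the main fit the only called member values were those of B2m between the lines and in dense culture. Those alone could lose a call, and most of the 505 were uncalled values that stayed uncalled. The B2m line difference kept its call in 12 of 12 fits without 1 array (1.52 to 1.97) and in 8 of 9 other alternatives. The B2m dense-culture difference kept its call in 3 of 12 fits without 1 array and in 7 of 11 other alternatives. The count of members called between the lines was 2 with equal-median scaling, with an offset of 16 in place of the floor and with array number as a fixed replicate block over all groups, 0 without both MLO-Y4 arrays numbered 1, and 1 to 2 without 1 array. In dense culture it was 0 when only spots above the limit on at least 3 arrays were tested, when only the compared groups were fitted or without both MLO-Y4 arrays numbered 1, and 0 to 3 without 1 array. Both it and the count of spots called were 0 with the replicate block over the dense groups alone. The spots called were 106 at low density and 94 in dense culture with only the compared groups fitted, and 3 for 2T3 density with the floor at the 40th percentile. Without 1 array they ranged from 342 to 462 between the lines, 108 to 215 at low density and 98 to 187 in dense culture. The cause was not tested. The 6 turned values were all uncalled. Without 1 array, Tap2 for 2T3 density ranged from -0.037 (C0 array 1 left out) to 1.98, and Tap2 for the difference of density effects from -0.84 to 1.16 (-0.84 without C0 array 3, -0.021 without 2T3 low array 1, -0.27 without MLO-Y4 low array 3). Psmb9 at low density ranged from -0.74 to 0.27 and H2-D1 for 2T3 density from -0.43 to 1.21, both turning without 2T3 low array 1. The replicate block by line and number as a random term (consensus correlation 0.247) changed no member's call, and neither did the block within 1 line. The block within 1 line and that over the dense groups alone were added after the data were seen. Of the other genes, Tapbp, H2-T23, Psme1 and Raet1d kept their line call in 12 fits without 1 array and 9 other alternatives, Tap1 in 12 and 5, Mr1 in 12 and 7, and Psmb8 in 2 and 3. Signal over background limits Psmb9 and Tap2.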
